A study of Mus musculus with 3 samples.

Results

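To describe how the active promoter mark H3K4me3 broke up into groups of short peaks in the mouse ovary, the clustered narrow peaks of an H3K4me3 ChIP-seq list were examined. Members were chosen by the widths and positions of the peaks themselves. A peak was a member when it was shorter than 1000 bp, lay on chromosomes 1 to 19 other than chromosome 15, and had the edge of another H3K4me3 peak of any width at most 1000 bp away. This rule selected 3459 of the 9929 H3K4me3 peaks, or 34.8% of the list (95% Wilson interval 33.9 to 35.8%). The tissue was whole ovary of wild-type C57BL/6 J mice aged 8 weeks, and the series held 1 library each for an H3K4me3 antibody, a BNC1 antibody and input DNA. All 3 libraries came from the same genotype and age without any treatment stated, so there was no contrast between conditions and no replicate. No p-value was therefore computed across peaks, and the intervals cover counting error only. Whole ovary mixes oocytes with granulosa, theca, stromal and other cells, and the list cannot tell which of them carried a given peak.

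H3K4me3 is a methyl mark on the tail of histone H3 that is deposited around the start sites of active genes. At such sites the nucleosome over the start itself is usually depleted, so that the mark often appears as a shoulder on each side of a dip. BNC1, or basonuclin 1, is a zinc finger transcription factor expressed in oocytes and in other germ and epithelial cells. In the study it was mapped by ChIP-seq to look for its target genes in the ovary. A gap inside a cluster, if wide enough, is thus a place where a start site, and a factor bound to it, could lie. How wide it would need to be was not tested, and many gaps were short, as given below. Whether a gap did lie at a start site was not tested, because genes were not placed on mm9, the build named in the submitters' processing notes. The labels mention sonicated nuclei, whereas in the study's methods chromatin was first cut with micrococcal nuclease and then sonicated. Which protocol was used for these libraries, and its part in the gaps, could not be tested from the lists. The label of the BNC1 library names an antibody from Huaan, whereas the study's ChIP methods name one from ThermoFisher. Which of them gave the BNC1 list could not be told from these sources.

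Peaks are intervals in which sequenced fragments, called tags, exceeded the background expected by the authors' peak caller. The members held 178903 of the 617686 tags in H3K4me3 peaks, a share of 29.0% (28.9 to 29.1%). The total depth of the libraries is unknown. Of the 9149 H3K4me3 peaks on the chromosomes considered, 8849 were narrow. The members made up 39.1% of these (38.1 to 40.1%), the other 5390 narrow peaks were isolated, and 300 peaks were 1000 bp or wider and are called broad below.

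The members fell into 1595 clusters, and most of these were simple pairs. Clusters of 2 peaks numbered 1312, or 82.3% (80.3 to 84.1%). There were 222 clusters of 3 peaks, 13.9% of the total (12.3 to 15.7%), and 44 clusters of 4. Longer rows were rare, with 12 clusters of 5 peaks, 2 of 6, 2 of 7 and 1 of 8. In 93 clusters at least 1 of the peaks was broad, and the 101 broad peaks so placed were 33.7% of all broad peaks (28.6 to 39.2%). The most common form by far was a pair of narrow peaks, which accounted for 1246 clusters. In 70 clusters a single narrow peak lay beside broad ones only.

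The peaks of a cluster covered most of its length. The median cluster spanned 1194 bp (interquartile range 927 to 1539 bp), of which 77.9% lay inside peaks (64.8 to 90.1%). In all, 1091 clusters, or 68.4% (66.1 to 70.6%), spanned 1000 bp or more. The median span was close to the median width of a broad peak, which was 1194.5 bp (1091 to 1379 bp). Clusters held fewer tags over that length, with a median of 107 tags per cluster (79 to 144.5) against 167 per broad peak (146.75 to 206.25). Among the 745 pairs of narrow peaks that spanned 1000 bp or more, the density was 90.1 tags per kb of span (69.9 to 109.6), whereas broad peaks held 140.4 tags per kb (130.2 to 153.5). Tags in the gaps are not part of the list, so the density over a span is a lower value than the reads themselves would give.

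Gap width was measured next, as the number of bases between the end of 1 peak and the start of the next. The clusters contained 1965 such gaps. Their median was 206 bp (95% order-statistic interval 193 to 221 bp), with quartiles of 79 and 429 bp and a range from 1 to 996 bp. Short gaps were the most frequent. In steps of 50 bp, the first held 336 gaps and the following ones 245, 235, 148 and 140. Counts fell from step to step as far as 550 bp, with smaller ups and downs beyond, and 17 gaps were left from 950 bp on. Altogether 338 gaps, or 17.2% (15.6 to 18.9%), were 50 bp or shorter, and in 9 of them the peaks were 1 bp apart. About the same number of gaps lay on each side of 200 bp, with 49.2% at or below it (47.0 to 51.4%).

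The upper end of these widths was set by the rule. The members closest to the limit were peaks of 33 and 44 tags on chromosome 11, which were 996 bp apart, and the nearest pair outside it, of 27 and 34 tags on chromosome 16, was 1006 bp apart. The widest members measured 998 bp, on chromosome 3 with 123 tags and on chromosome 19 with 136 tags, and the first peaks beyond the width limit with a neighbour that near were 1006 bp (131 tags) and 1011 bp (133 tags) wide. Few peaks had their next neighbour just past the limit. Among adjacent peaks of any width on these chromosomes, 1969 distances were at most 1 kb, 262 were between 1 and 2 kb, and 142 were between 2 and 3 kb. Distances up to 1 kb were thus 7.52 times as frequent as those between 1 and 2 kb.

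The summit is the position of highest tag pileup in a peak. Summit-to-summit spacing had a median of 657 bp (639 to 674 bp), quartiles of 470 and 906 bp and a range from 101 to 2335 bp. Unlike the gaps, the spacings had a maximum away from the lower end, between 500 and 600 bp, where 282 pairs lay. The steps of 100 bp on either side held 266 and 239 pairs, and counts fell in each further step up to 1600 bp. In total 787 spacings, or 40.1% (37.9 to 42.2%), were at least 400 bp and under 700 bp, and 94, or 4.78% (3.93 to 5.82%), were below 300 bp. For pairs of narrow peaks the median spacing was 623.5 bp (604 to 646 bp).

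**Figure D1:**
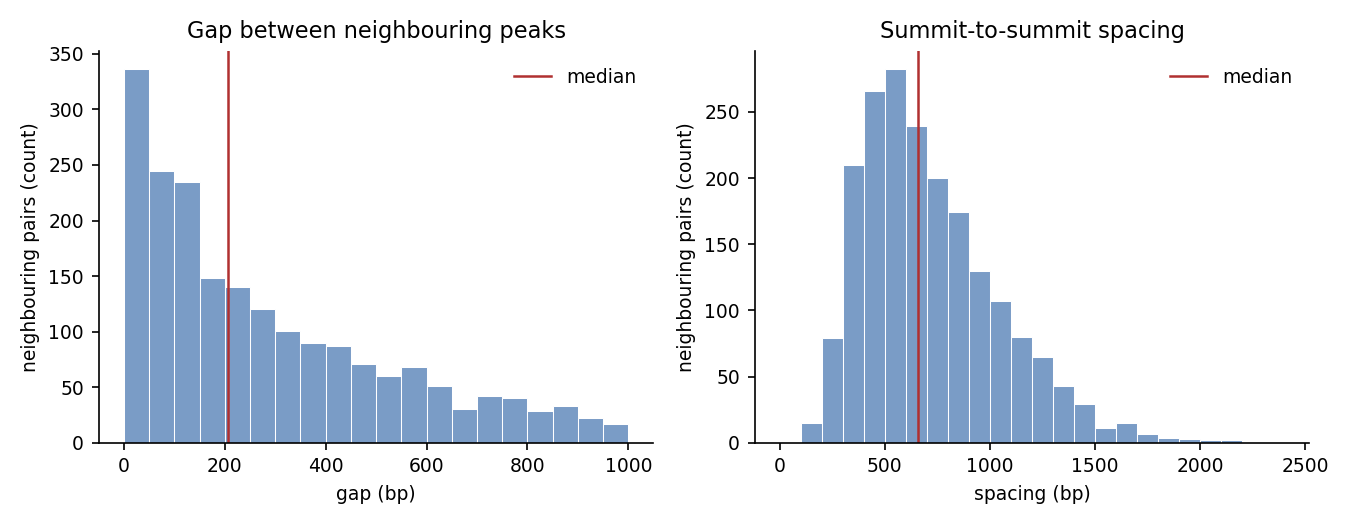
Histograms of the 1965 gaps (left, bins of 50 bp) and of the summit-to-summit spacings of the same neighbouring peaks (right, bins of 100 bp), both in bp, with the number of pairs on the vertical axis and the median as a line. Gaps were most frequent below 50 bp and declined from there, whereas spacings had a maximum between 500 and 600 bp.

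Most of the spacing consisted of peak flanks and not of the gap. The gap made up a median of 34.4% of the spacing (quartiles 15.9 and 53.0%). The summit of the left peak lay a median of 172 bp from the gap (161 to 185 bp) and that of the right peak 170 bp (164 to 176 bp), so the sides were alike. Spacing rose with the gap, from a median of 430.5 bp for gaps of 1 to 50 bp, through 504 bp for 51 to 200 bp and 725 bp for 201 to 500 bp, to 1107 bp for wider gaps. The peaks flanking these gaps changed little, with median widths of 411, 394.5, 386 and 392 bp and median tags of 49, 47, 46 and 46 in the same order. The size of the flanking peaks thus differed little between short and wide gaps.

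It was then asked whether summits leaned towards the gap, as shoulders of a dip would. Both summits lay in the part of the peak nearer the gap in 510 of 1965 pairs, or 26.0% (24.1 to 27.9%). Both lay in the far part in 447 pairs, or 22.7% (20.9 to 24.7%). If left and right peaks had placed their summits as isolated narrow peaks did, 24.8% of pairs would face the gap and as many would have both summits in the far part. The interval of the facing pairs included this value, whereas that of the pairs with both summits in the far part lay just below it. The share for left peaks alone was 48.4% (46.2 to 50.7%), beside 47.4% of isolated narrow peaks with the summit right of the centre (46.1 to 48.7%). For right peaks it was 54.6% (52.4 to 56.8%), beside 52.3% of isolated peaks with the summit left of the centre (50.9 to 53.6%). For each side taken alone, the intervals of clustered and isolated peaks overlapped. The share facing the gap was 25.7% for gaps of 1 to 50 bp and 26.2% for gaps over 500 bp.

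Flank lengths were compared in pairs of narrow peaks. From the summit to the gap the median was 158 bp on the left (152 to 167 bp) and 166 bp on the right (157 to 172 bp). From the summit to the outer edge it was 176 bp (164 to 189 bp) and 181 bp (165 to 193 bp). Isolated narrow peaks had 155 bp on the left of the summit (151 to 161 bp) and 158.5 bp on the right (155 to 164 bp). The intervals of the outer flanks did not overlap those of isolated peaks on the same side and lay above them. The intervals of the inner flanks overlapped those of both the outer flanks and the isolated peaks. All these medians pool the chromosomes, and flanks were not compared within chromosomes. For whole widths, the ratio of members to isolated narrow peaks was 1.07 pooled but 1.01 at the median within chromosomes.

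Tags were divided unevenly within many pairs. The tag balance, defined as the smaller tag count over the larger, had a median of 0.678 (0.667 to 0.690), quartiles of 0.522 and 0.841 and a lowest value of 0.130. It was at least 0.8 in 621 pairs, or 31.6% (29.6 to 33.7%), and at least 0.5 in 1537 pairs, or 78.2% (76.3 to 80.0%). In 925 pairs, or 47.1% (44.9 to 49.3%), the exact binomial interval of the left share left out an equal split, and in the others it included one. The same count was not made for adjacent peaks more than 1 kb apart. Neither side was favoured. The left peak held more tags in 969 of the 1935 pairs with unequal counts, which is 50.1% (47.9 to 52.3%), and 30 pairs were tied.

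The wider peak of a pair usually held more tags. This was so in 1782 of 1933 pairs, or 92.2% (90.9 to 93.3%), and was not counted for more distant neighbours. Per kb of width, the median balance rose to 0.908 (0.904 to 0.913), with quartiles of 0.849 and 0.955. Members varied little in tags per kb, with a median of 117.9 and quartiles of 109.7 and 127.1. Fold enrichment, the peak over its expected background, had a median balance of 0.841 (0.833 to 0.847) within pairs.

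The balance within clusters was then set beside that of more distant neighbours. Adjacent peaks of any width more than 1 kb apart, of which there were 7162 pairs, had a median balance of 0.682 (0.674 to 0.690), and per kb 0.911 (0.909 to 0.914). At distances up to 100 bp the balance was 0.658 (0.636 to 0.680), from 1 to 2 kb it was 0.709 (0.671 to 0.737), and beyond 100 kb 0.679 (0.667 to 0.691). Neighbours within a cluster were thus about as far apart in tags as neighbours outside one. The rank correlation between left and right tags was 0.24 across the 1965 pairs and 0.22 across the more distant neighbours. Peaks of 1 library share its depth and the background of their chromosome, so these correlations are descriptions only.

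**Figure D2:**
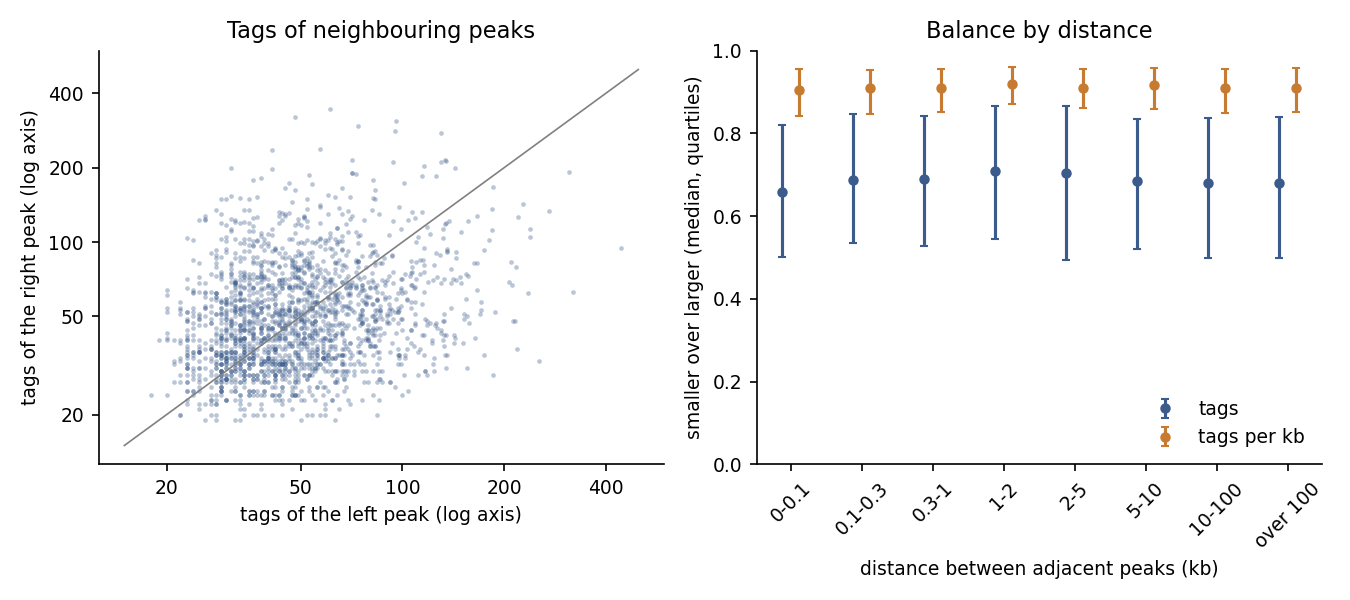
Left, tags of the left and right peak of each of the 1965 neighbouring pairs on log axes, with the line of equal tags. Right, the smaller over the larger value of adjacent peaks by their distance in kb, for tags and for tags per kb of width, as medians with quartiles, which ranged from 0.658 to 0.709 and from 0.904 to 0.920 over all distances.

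In clusters of 3 the middle peak had no constant rank. It held the most tags in 82 of 222 such clusters, or 36.9% (30.9 to 43.5%), and the fewest in 67, or 30.2% (24.5 to 36.5%). Middle peaks had a median of 47 tags (43 to 50) and outer peaks 46 (43 to 49). Members of 2-peak and 3-peak clusters both had a median of 45 tags. Those of the 61 clusters with 4 or more peaks had 51.5 tags, were 424.5 bp wide at the median against 384 bp in 2-peak clusters, and had a fold enrichment of 6.77 against 7.32. These values pool chromosomes that differed in the tags and fold enrichment of their members. Cluster sizes were not compared within chromosomes.

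With all chromosomes pooled, members had a higher median width and more tags than isolated narrow peaks. Their median width was 387 bp (quartiles 300 and 508 bp) against 362.5 bp (286 and 485 bp), and their median tags 46 (34 and 63) against 41 (31 and 58). The score listed for each peak, 10 times the −log10 of its p-value, had a median of 79.35 in members and 75.09 in isolated peaks. Peaks within 10 units of the weakest score of the list, 50.01, made up 21.6% of members (20.3 to 23.0%) and 24.2% of isolated narrow peaks (23.1 to 25.3%). The median false discovery rate was 0.17% in both.

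Within chromosomes the difference in tags was smaller. The ratio of median tags, members over isolated narrow peaks, was 1.12 with all chromosomes pooled, but the median of the 18 ratios within chromosomes was 1.03. Members had the higher median tags on 13 chromosomes and the lower on 4. The difference in width was smaller as well. The ratio of median widths was 1.07 pooled and 1.01 at the median within chromosomes, with members wider on 10 chromosomes and narrower on 7. For fold enrichment the direction changed. Its pooled median was lower in members, at 7.25 (7.17 to 7.30) against 7.41 (7.38 to 7.51), a ratio of 0.978. Within chromosomes, weighted equally whatever their number of members, the median ratio was 1.03. Members were higher on 13 of 18 and lower on 5. The higher ones included chromosomes 4, 6, 7, 13, 14, 16 and 18, which had only 16 to 79 members each. The others were chromosomes 1, 2, 3, 8, 10 and 19, with 106 to 425 members each. The 5 lower ones were chromosomes 5, 9, 11, 12 and 17, with 201 to 456 each. The pooled order of fold enrichment is therefore not that found within most chromosomes, but chromosomes with 106 or more members went both ways.

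The chromosomes differed in how many of their narrow peaks were clustered. The share of narrow peaks that were members was highest on chromosome 19, with 294 members or 53.2% (49.0 to 57.3%), followed by chromosome 3 with 425 or 48.4% (45.1 to 51.7%) and chromosome 12 with 253 or 44.9% (40.9 to 49.1%). Chromosome 11 had the most members, 456, at a share of 43.9% (40.9 to 47.0%). The interval of chromosome 19 did not overlap that of chromosome 11 but did overlap those of chromosomes 3 and 12. The lowest shares were on chromosome 18 with 16 members or 18.0% (11.4 to 27.2%), chromosome 14 with 32 or 18.2% (13.2 to 24.5%) and chromosome 13 with 32 or 18.7% (13.6 to 25.2%). Clusters of 4 or more peaks were most numerous on chromosome 3, which had 13 of the 61, and were not seen on chromosomes 4, 6, 7, 10, 14 and 18.

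The clustered share rose with the density of H3K4me3 peaks. Across 18 chromosomes, Pearson's r between the share and the peaks per Mb was 0.865 and Spearman's rho was 0.924. The value of r was 0.885 once chromosomes 11 and 19, the farthest from the median density, were left out. Both measures count the same peaks of 1 library, so the relation is a description and was not tested. An index of background, tags per kb divided by fold enrichment, also tended to be higher on dense chromosomes. This index is derived from the peaks themselves and was not measured from input. It had a median of 18.6 in members on chromosome 19 and 17.6 on chromosome 3, but 13.3 on chromosome 18 and 13.0 on chromosome 13. The order was not exact, since chromosome 11, with 8.72 peaks per Mb, had 16.6, below chromosome 3 with 5.76 peaks per Mb. The part of the background in the clustered share was not tested.

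**Figure D3:**
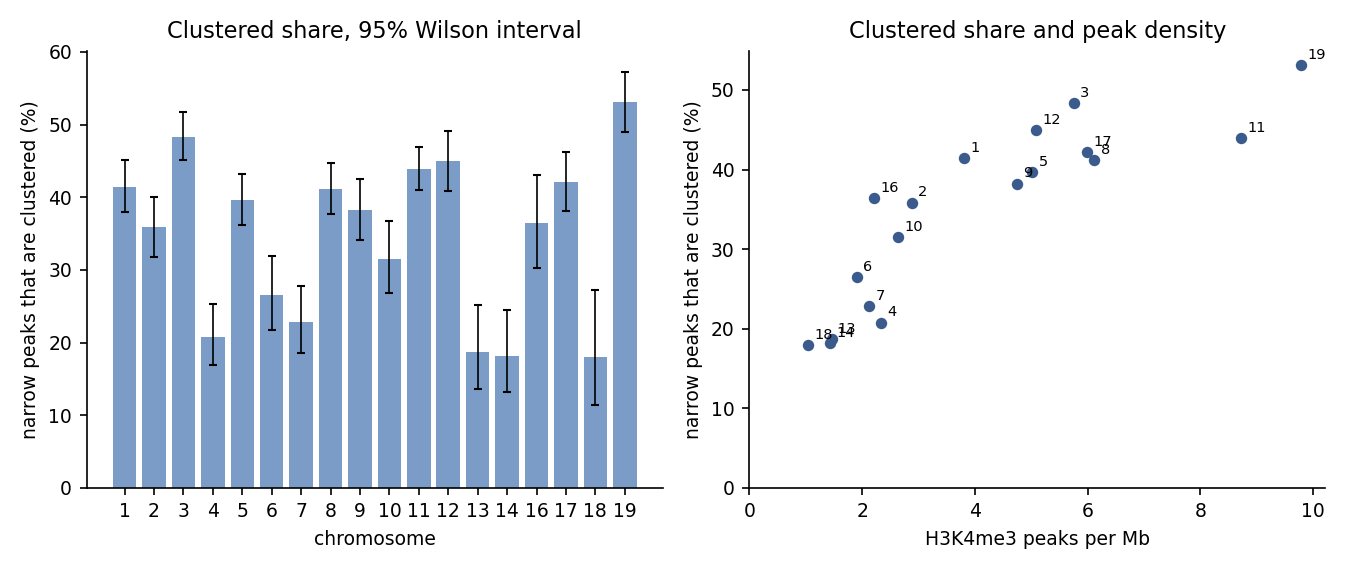
Left, percent of narrow peaks that were clustered on each of the 18 chromosomes, with 95% Wilson intervals. Right, the same percent against H3K4me3 peaks per Mb, where chromosome 19 is highest in both at 53.2% and 9.78 peaks per Mb and chromosome 18 lowest in both at 18.0% and 1.05.

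Gaps, spacings and balance inside the clusters were compared over fewer chromosomes than the clustered share. Over the 11 chromosomes with 100 or more members, the median gap ranged from 177.5 to 265 bp, the median spacing from 542 to 763 bp and the median tag balance from 0.634 to 0.714. On the same chromosomes the clustered share ranged from 31.5% on chromosome 10 to 53.2% on chromosome 19. The widest median spacing was on chromosome 12 and the narrowest on chromosome 10. Neighbouring clusters were far apart, with a median of 293838 bp to the next (quartiles 88394 and 1092122 bp), and 92 of 1577 such distances, or 5.83% (4.78 to 7.10%), were within 10 kb.

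Single clusters are described with mm9 coordinates as listed, with the first base of a chromosome as 1, and without gene names, since genes were not placed on this build. The cluster with the most peaks lay on chromosome 11 from 100144929 to 100152840. It had 8 peaks over 7912 bp, of which 7 were narrow, with 31, 124, 30, 36, 52, 136, 94 and 122 tags from left to right. Its gaps ranged from 79 bp to 906 bp, and its strongest member held 136 tags at 6.41-fold enrichment. Tags were therefore concentrated in the right part of this row and in its broad peak of 124 tags.

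On chromosome 19, 7 peaks lay between 9149384 and 9158414, the longest span of any cluster at 9031 bp. They held 853 tags in all, which was also the highest sum. The first peak was broad, 2039 bp with 321 tags, and another of 1287 bp held 152. The 5 narrow members held 63, 51, 126, 90 and 50 tags. The 126-tag member, 871 bp wide, had the strongest score among them, 246.05, at 7.63-fold enrichment. This cluster combined broad and narrow peaks with similar fold enrichments of 5.36 to 8.81.

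The other cluster of 7 was made of narrow peaks alone and was much weaker. It ran on chromosome 1 from 137757253 to 137762249, and its members held 31, 48, 35, 24, 52, 28 and 39 tags. Peaks covered only 46.5% of its length. Gaps of 37 and 35 bp alternated with wider ones of 265, 904, 542 and 891 bp. Its 257 tags were fewer than in the first broad peak of the chromosome 19 cluster alone.

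The next highest sums of tags were on chromosome 9, where a single narrow member lay between broad peaks. From 9237556 to 9243261, a member of 697 bp with 95 tags and 4.15-fold enrichment lay between broad peaks of 443 and 281 tags. From 34791992 to 34796704, a member of 602 bp with 126 tags followed a broad peak of 220 tags after a gap of 16 bp, and 2 more broad peaks held 185 and 167. Peaks covered 90.9% of both spans. In these clusters most tags thus belonged to broad neighbours.

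The 3 pairs whose weaker peak had the highest enrichment had different spans, from 854 to 1688 bp. On chromosome 2 from 130249606 to 130250459, peaks of 47 and 57 tags with enrichments of 13.07 and 12.3 were 39 bp apart, with summits 488 bp apart. The left share was 45.2% (exact interval 35.4 to 55.3%). On chromosome 3 from 35830996 to 35832683, the peaks held 111 and 105 tags at 11.49-fold and 12.15-fold enrichment, with a gap of 129 bp and summits 765 bp apart. The interval of its left share, 51.4% (44.5 to 58.2%), included an equal split. On chromosome 10 from 77814396 to 77815627, peaks of 53 and 78 tags at 12.3-fold and 11.3-fold were 202 bp apart, and the left share was 40.5% (32.0 to 49.4%), an interval that left out an equal split. Per kb of width the balance of this last pair was 0.987.

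The highest fold enrichment of any member did not extend to its neighbour. On chromosome 5 from 150481184 to 150481494, a member with 48 tags had an enrichment of 16.7, whereas the peak 63 bp to its left held 49 tags at 5.96-fold. The member with the most tags, 192, was on chromosome 9 from 13631995 to 13632980 and followed a broad peak of 311 tags after 20 bp. The narrowest, on chromosome 17 from 3084406 to 3084507, packed 78 tags into 102 bp at 5.46-fold enrichment. It was the densest member as well, with 765 tags per kb against a member median of 117.9. Its fold enrichment was below the member median of 7.25, and the peak 73 bp to its left held 49 tags in 151 bp. Whether this density was an artefact of mapping was not tested, and no peak was filtered. These 3 members were chosen after their values were seen.

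**Figure D4:**
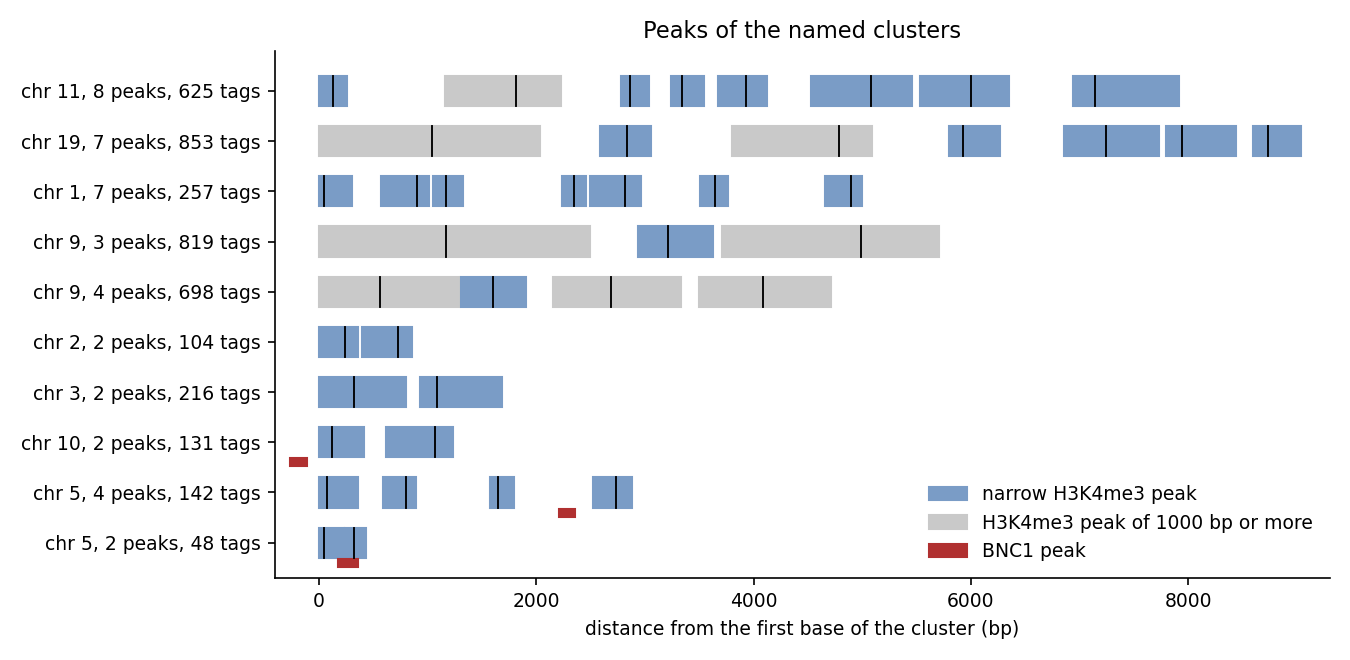
Maps of the 10 named clusters, drawn to scale from the first base of each cluster in bp, with narrow peaks, peaks of 1000 bp or more, summits as vertical lines and BNC1 peaks below. The rows of 8 and 7 peaks extend over 4997 to 9031 bp, whereas the pairs with high enrichment span 854 to 1688 bp.

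Finally, BNC1 peaks were placed relative to the clusters. Of the members, 27 had a BNC1 peak within 1 kb of an edge, a share of 0.781% (0.537 to 1.13%). The share among all 9149 H3K4me3 peaks of these chromosomes was 0.995%, that of isolated narrow peaks 1.06% (0.817 to 1.37%, 57 peaks) and that of broad peaks 2.33% (1.13 to 4.74%, 7 peaks). At the rates of isolated narrow peaks on each chromosome, 36.9 members would have had one. The interval of the members overlapped that of the isolated peaks, and the difference between them was not tested. The 27 members lay near 19 BNC1 peaks, so members of a cluster shared BNC1 peaks, although the interval treats them as separate. The share of the members was the lowest of the 3 kinds.

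Since windows of clustered peaks overlap, the BNC1 peaks were also counted per Mb of window. Members and the 1 kb on each side covered 5.20 Mb and contained 19 BNC1 peaks, or 3.66 per Mb (exact Poisson interval 2.20 to 5.71). Isolated narrow peaks had 4.35 per Mb (3.28 to 5.64) and broad peaks 6.14 (2.25 to 13.4). Over the whole of these chromosomes, measured to their last peak in the lists, the 2386 BNC1 peaks amounted to 1.01 per Mb. Windows around members therefore held more BNC1 peaks per Mb than the chromosomes did on average, and about as many as windows around isolated narrow peaks within counting error. The average counts all sequence up to the last peak, whether or not a peak could be called there. It was not matched to the chromosomes on which members were most numerous.

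**Figure D5:**
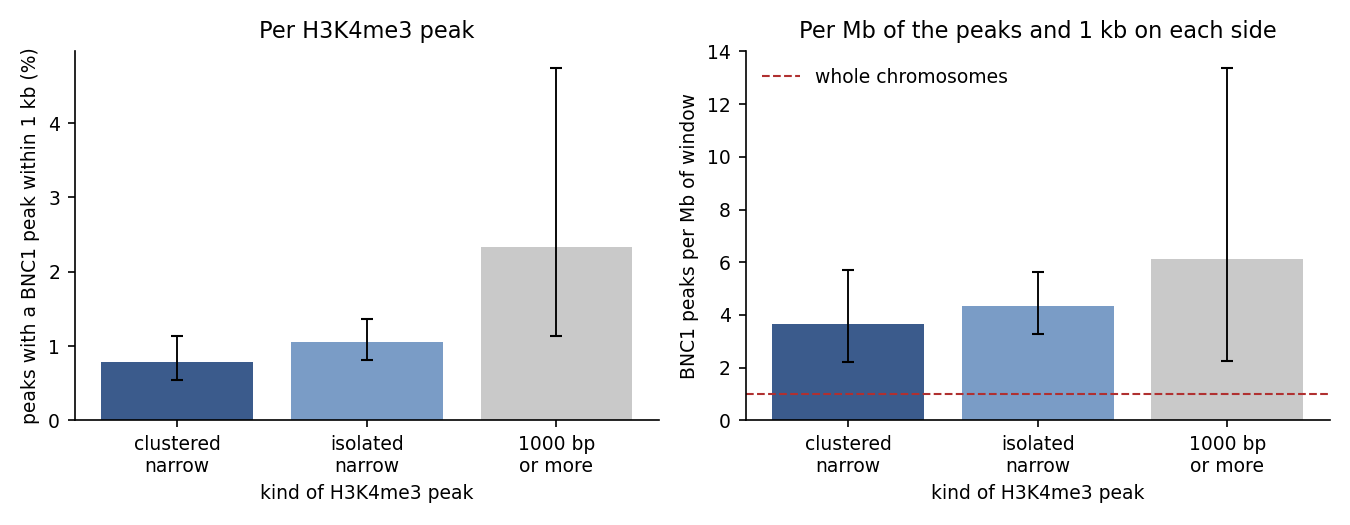
Left, percent of clustered narrow, isolated narrow and broad H3K4me3 peaks with a BNC1 peak within 1 kb, with 95% Wilson intervals. Right, BNC1 peaks per Mb of the same peaks and 1 kb on each side, with exact Poisson intervals and the average of 1.01 per Mb over the chromosomes as a dashed line, which lies below all intervals.

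The 19 BNC1 peaks lay beside 19 different clusters, 1.19% of all (0.764 to 1.85%). Of these peaks, 11 were outside the cluster and touched none of its peaks, 5 touched a member without reaching a gap, 1 lay within a broad peak of the cluster on chromosome 9, and 2 reached into a gap. Gaps with BNC1 were thus 2 of 1965, or 0.102% (0.0279 to 0.370%), over a summed gap length of 0.555 Mb. This amounted to 3.60 per Mb of gap (exact Poisson interval 0.436 to 13.0), beside 3.66 per Mb over all windows around members. Any overlap with a gap was counted, and 1 of the 2 BNC1 peaks had only 7 bp in its gap. Gaps are also shorter than the windows, so these rates are not directly comparable. These 19 peaks were spread over 10 chromosomes, with 4 on chromosome 11 and 3 each on chromosomes 5 and 9. They were weak, as BNC1 peaks in this list generally were, with a median of 9 tags (range 8 to 27) and a median fold enrichment of 8.06 (4.34 to 11.71). All BNC1 peaks of these chromosomes had medians of 8 tags and 8.37-fold.

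Only 1 BNC1 peak lay wholly inside a gap. This peak of 9 tags and 10.79-fold enrichment occupied chromosome 5 from 91118664 to 91118811, in a gap of 730 bp. The flanking members held 27 and 37 tags with summits 1088 bp apart. Their scores, 54.64 and 51.79, were near the weakest H3K4me3 score of 50.01. Both belonged to a row of 4 narrow peaks with 38, 40, 27 and 37 tags that spanned 2884 bp. The BNC1 peak was 167 bp from the right member.

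The other was on chromosome 5 from 107508261 to 107508442 and covered the whole of a 7-bp gap between members of 28 and 20 tags, overlapping both of them. It held 13 tags at 11.71-fold enrichment, the highest among the BNC1 peaks near clusters, with a score of 73.98. The member of 28 tags scored 69.98 and that of 20 tags 50.4, near the weakest H3K4me3 score of 50.01. The cluster was small, with 48 tags over 437 bp, where the lowest values of any cluster were 42 tags and 326 bp. Its summits were 277 bp apart, and the interval of its left share, 58.3% (43.2 to 72.4%), included an equal split.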

How the data were processed

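Ovary ChIP-seq peaks were taken from 2 deposited lists, each called on 1 library. The submitters' processing notes name Bowtie2, MACS2 2.1.0 and mm9, although the column names are those of MACS version 1. Control and settings are not given in the sources used here. Per the file headers, the authors deposited tag counts per peak, without normalization, a score of 10 × −log10 p, a fold enrichment ratio and a false discovery rate in percent. Width and summit offset in bp were also used.

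Distances were bases between edges. A chain of peaks at most 1000 bp apart was a cluster if it held at least 1 narrow peak. Python 3.11.15, numpy 2.4.6, pandas 2.3.3, scipy 1.17.1 and matplotlib 3.10.9 were used. Cluster building was tested on simulated data. No peak was filtered. Depth is visible only as tags inside peaks. Groups came from the antibody labels. With 1 library per antibody no test was made. The input library was not analysed here.

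Members and settings were chosen with earlier results of these data known. Named clusters were the 3 with the most peaks, the 3 with the most tags, the 3 pairs whose weaker member had the highest fold enrichment, those with BNC1 in a gap and the peaks at the limits of the rule. Alternatives were other distance, width and p-value limits, narrow neighbours only, pairs only, within-chromosome ratios and stricter BNC1 criteria. Genes and sequences were left out, since the gene table at hand is of another build (GRCm38.p6).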

Additional observations from a re-analysis of the deposited data

How the results depend on the processing

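Of 48 recomputed values of 11 results, 26 remained inside the interval of the main value or, for counts, differed from it by no more than 1.5 times. A larger move was found in 21, and 1 reversed. With edges within 500 bp, 32.3% of narrow peaks were clustered, the median gap was 143 bp, the spacing 578.5 bp, the ratio of fold enrichment 0.995, 1 cluster had BNC1 in a gap and 11 had it within 1 kb. With 2000 bp, the share was 43.1%, the gap 253.5 bp and the spacing 711 bp. Shares, gaps and spacings depend on the distance limit by construction. The cause of the move in the fold enrichment ratio was not tested. With H3K4me3 scores of at least 60.01, 2253 members remained, which were 33.1% of narrow peaks, with a spacing of 693 bp and a tag balance of 0.694. In that setting 0 clusters had BNC1 in a gap and 10 had it within 1 kb. Each of the 2 gaps with BNC1 in the main setting had a flanking member that scored below 60.01. Pairs of narrow peaks alone gave a spacing of 623.5 bp and a balance of 0.694. Requiring 50% of the BNC1 peak in the gap left 1 cluster. Of the 19 clusters with BNC1 within 1 kb, 6 had a BNC1 peak touching a member and 2 had one with a score of at least 50.01. Within chromosomes, weighted equally, the ratio of median tags was 1.03, and that of fold enrichment reversed from 0.978 to 1.03. The cause was not tested beyond the values by chromosome given above. No paired analysis was possible because each antibody had 1 library. The depth of the libraries is unknown, and its part in the BNC1 counts was not tested.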

Other observations

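The clusters were also unevenly placed along chromosomes. Counted in windows of 10 Mb, chosen after their values were seen, the most lay on chromosome 19 from 0 to 10 Mb, with 40 clusters and 80 members beside 79 isolated narrow peaks. Chromosome 12 from 110 to 120 Mb had 36 clusters with 68 members beside 49 isolated peaks, and chromosome 19 from 40 to 50 Mb had 35 clusters with 78 members beside 65. On chromosome 8 from 120 to 130 Mb the order was the other way, with 70 members in 31 clusters and 102 isolated peaks. The same held on chromosome 3 from 100 to 110 Mb (68 members, 77 isolated). It also held on chromosome 11 from 100 to 110 Mb (65 and 96) and from 70 to 80 Mb (55 and 59). From 90 to 100 Mb on chromosome 11 there were 71 of each. Of the 10 windows with the most clusters, 4 were on chromosome 11. Whether all H3K4me3 peaks were placed as unevenly was not tested.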
